A study of Homo sapiens with 4 samples.

Results

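The genes described here are 10 regulators and adhesion molecules of the mesenchymal cell state: the transcription factors SNAI1, SNAI2, TWIST1, TWIST2, ZEB1, ZEB2 and PRRX1, and the cadherins CDH1, CDH2 and CDH11. They were taken by name, with earlier results of these data known. Every probe set, a group of short oligonucleotides on the array that together read a transcript, was used if its only gene symbol in the platform annotation was a name on this list. This gave 25 of 54613 probe sets and 10 of 19775 genes, with 17 probe sets for the transcription factors and 8 for the cadherins. The number of probe sets that pair a listed gene with another gene was 0.

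RNA came from the cell line LN-229, established from a human glioblastoma. The 2 control cultures were untreated, and the 2 cultures labelled induced had doxycycline (Doxocyclin in the labels) for 48 h to express WIF1, a secreted inhibitor that binds WNT ligands. Each culture was read on 1 Affymetrix array, and the labels call the replicates of a group biological. The effects of doxycycline and of WIF1 cannot be told apart, since no array had the drug without the transgene, and whether the inducible cells were a single clone is not given in the sources used here. The probe set of WIF1 read 2.98 and 2.90 in control arrays and 2.93 and 3.03 in the arrays labelled induced (log2 intensities), at the 5.75 percentile of all probe sets. The groups overlapped, at a difference of 0.04 (SE 0.10, unadjusted p = 0.688 by limma), so the one reading of WIF1 on these arrays shows no rise and goes against the label. Whether its probes lie in the part of WIF1 that the transgene carries is not given in the sources used here. The arrays are therefore called induced by their label only, and every direction below is between arrays so labelled and controls.

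Epithelial to mesenchymal transition is the programme by which cells loosen their contacts with neighbours and become motile. SNAIL, TWIST and ZEB proteins are DNA-binding factors of this programme that repress E-cadherin (CDH1) through short promoter motifs called E-boxes, and cells then often carry N-cadherin (CDH2) or cadherin 11 in its place. Glioma cells are not epithelial, yet many of them express these factors, which have been linked to invasion and to the mesenchymal subtype of glioblastoma. The question here was what the levels of these genes were in LN-229 cells and whether they differed in the cultures labelled as WIF1-induced.

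Marker genes were read first as a check of the cell type. Of 10 glioma markers 8 lay above the 75 percentile of all probe sets, with VIM (vimentin) at the 99.9 percentile and NES (nestin) at the 98.2 percentile. GFAP, the defining intermediate filament of astrocytes, was dim at the 40.4 percentile, and PDGFRA lay at the 45.9 percentile. Of 12 measured epithelial markers 1 reached the 75 percentile, the keratin KRT18, and the epithelial adhesion gene EPCAM lay at the 8.20 percentile. None of the 8 leukocyte or 10 endothelial markers reached the 75 percentile, against 2 of the 10 neuronal markers. The mean epithelial marker signal was 6.16 and 6.27 in the controls and 6.17 to 6.20 in the arrays labelled induced. Array medians were 6.15 to 6.19. Over all probe sets the arrays did not group by label. The closest pair was the first control and the first array labelled induced (r = 0.998). The controls correlated at 0.9976, the arrays labelled induced at 0.9972, and the other pairs across groups at 0.9959 to 0.9971.

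No gene of the set passed the test for a difference. limma called 0 of the 25 probe sets at a Benjamini-Hochberg adjusted p under 0.05, where 0% of all 54613 probe sets were called, and the smallest adjusted p in the set was 0.472. CDH11 and PRRX1 had lower signals in the arrays labelled induced in every one of their 4 and 3 probe sets by group mean (for PRRX1 in 2 of 3 without the first control array), CDH2 and ZEB2 gave different answers with different probe sets, and the other genes differed by at most 0.20 log2 units in any probe set. At an unadjusted p under 0.05 stood 7 of 25 probe sets, or 28.0%, against 10% of all probe sets. Of these, 6 were lower (5.27% of all probe sets) and 1 was higher (4.75% of all). The 7 belong to only 5 genes, so they are not independent readings. The count moved with the array left out. It was 2 without the first control array (7.81% of all probe sets then) and 4 without the second (3.91%), all of them among the 7. Without the first array labelled induced it was 7 (11.4% of all) and without the second 5 (4.80%), and in each case 4 were among the original 7. With each array centred on its median it was 5, of which 4 were lower and 1 was higher, while the split over all probe sets turned from 2876 lower and 2593 higher to 1869 lower and 3477 higher.

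The arrays of the groups did not overlap in 12 of 25 probe sets, or 48.0%, against 41.4% of all probe sets. This pooled share was near the background, but its parts differed. It was 7 of 8 probe sets (87.5%) for the cadherins and 5 of 17 (29.4%) for the transcription factors. Of the 7 cadherin probe sets, 4 were of CDH11, so they are not independent readings. In 9 of the 25 probe sets the arrays labelled induced were lower without overlap, against 23.5% of all probe sets. Of these 9, 4 were probe sets of CDH11 and 2 of PRRX1, so they are not independent readings. The median difference over the 25 probe sets was -0.05 log2 units, against -0.01 over all. The mean level was at least 6.16 (the median over the array) in 17 probe sets. Of these, 12 (70.6%) had a lower and 5 a higher group mean in the arrays labelled induced. Over all probe sets at such levels, 55.3% had a lower one. Of the 12, 3 were probe sets of PRRX1 and 2 of CDH11. The 95% intervals of all 25 differences lay between -0.50 and 0.77. A change of 1 log2 unit, which is a doubling of signal, was therefore outside the interval of each of these probe sets.

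**Figure D1:**
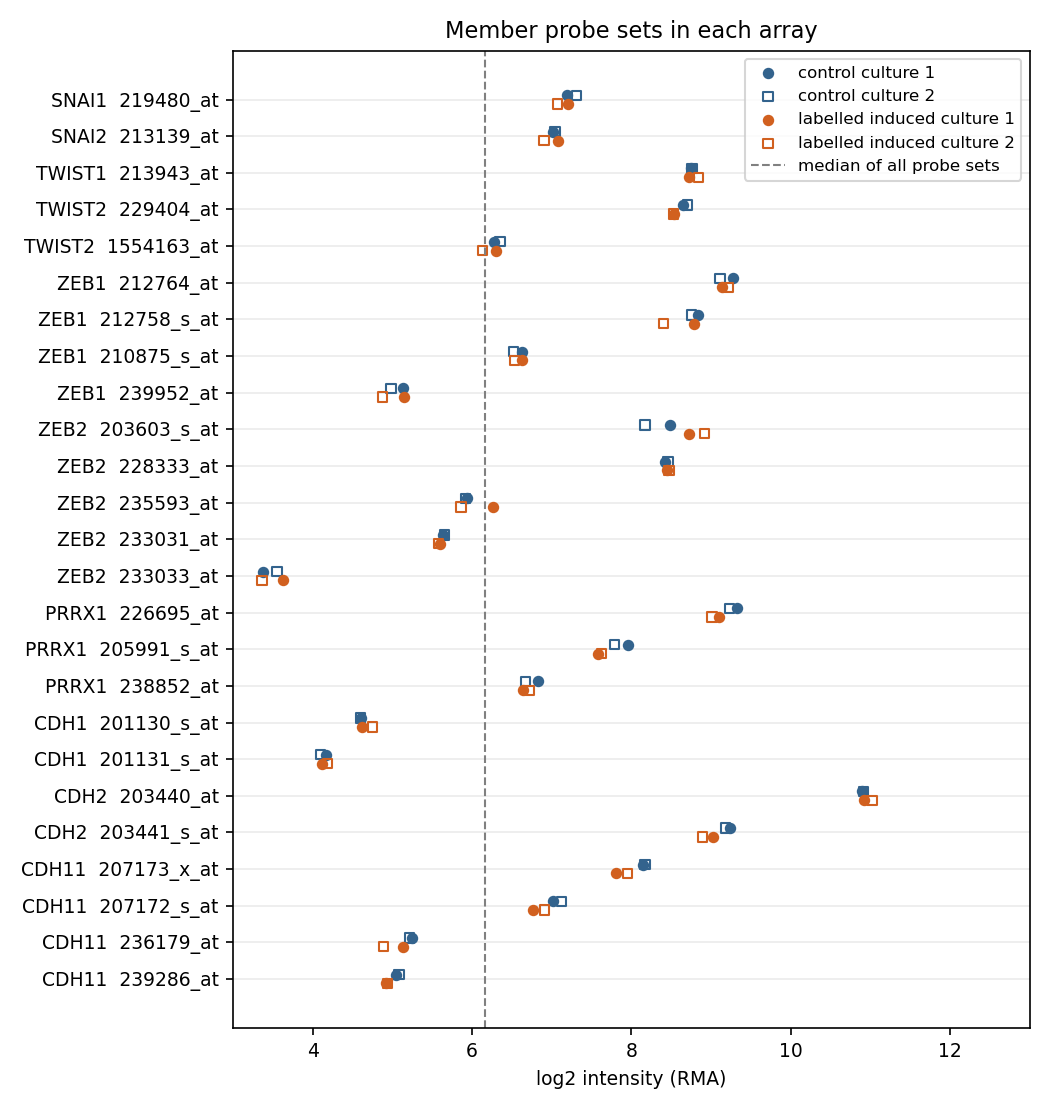
Log2 intensity of each of the 25 probe sets (rows, with gene symbol and probe set name) in the 4 arrays, controls in blue and arrays labelled induced in orange, with the median of all probe sets (6.16) as a dashed line. The spread between arrays is small beside the range of levels, and both CDH1 probe sets lie left of the line in all 4 arrays.

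SNAI1 and SNAI2 encode SNAIL and SLUG, zinc finger repressors that act early in the transition. SNAI1 was read by 219480_at at 7.19 and 7.31 in control arrays and at 7.20 and 7.07 in the arrays labelled induced. The first array labelled induced lay between the controls, so the groups overlapped. The difference was -0.12 (SE 0.083, 95% interval -0.32 to 0.09, adjusted p = 0.649). SNAI2 was read by 213139_at at 7.02 and 7.04 in control arrays and at 7.08 and 6.90 in the arrays labelled induced. Here the controls lay between the arrays labelled induced, and the sign turned with the choice of arrays, from -0.04 with all 4 (SE 0.086, 95% interval -0.25 to 0.16) to 0.05 without the second array labelled induced. Both genes lay above the middle of the array, at the 67.0 and 64.5 percentiles. Each has a single probe set here, so neither value has a second reading.

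TWIST1 and TWIST2 encode closely related basic helix-loop-helix factors that bind E-boxes. TWIST1 was read by 213943_at at 8.75 and 8.76 in control arrays and at 8.72 and 8.84 in the arrays labelled induced. The arrays labelled induced lay on either side of the controls, with a difference of 0.03 (SE 0.059, 95% interval -0.11 to 0.17, adjusted p = 0.893) that became -0.03 without the second array labelled induced. The brighter TWIST2 probe set, 229404_at, read 8.65 and 8.70 in control arrays and 8.54 and 8.53 in the arrays labelled induced. Both arrays labelled induced were below both controls, and the difference of -0.14 (SE 0.052, unadjusted p = 0.0361, adjusted p = 0.483) did not pass. Its unadjusted p was not under 0.05 in 7 of 10 alternative fits, with 0.145 the highest. The other TWIST2 probe set, 1554163_at, lay near the median level, with 6.27 and 6.35 against 6.30 and 6.13. Its groups overlapped, at a difference of -0.09 (SE 0.096). Among these 4 SNAIL and TWIST genes, the brighter TWIST2 reading was thus the only one without overlap between groups.

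ZEB1 and ZEB2 are large zinc finger and homeodomain repressors that bind paired E-boxes and are held down in epithelial cells by the miR-200 family. The brightest ZEB1 probe set, 212764_at at the 87.2 percentile, read 9.28 and 9.11 in control arrays and 9.14 and 9.21 in the arrays labelled induced. Both values labelled induced lay inside the range of the controls, and the difference of -0.02 (SE 0.069, 95% interval -0.19 to 0.14) took the other sign after centring arrays on their medians and without the first control or the first array labelled induced. A dimmer one, 212758_s_at, read 8.84 and 8.75 in control arrays and 8.79 and 8.40 in the arrays labelled induced. Its difference of -0.20 (SE 0.12, adjusted p = 0.591) came from the second array labelled induced, since the first lay between the controls. The third bright set, 210875_s_at, gave 0.00 (SE 0.085), and the dim 239952_at gave -0.05 (SE 0.13). None of the 4 ZEB1 probe sets separated the groups.

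ZEB2 gave the largest difference of the set, and with 1 probe set only. In 203603_s_at the controls read 8.48 and 8.17 and the arrays labelled induced 8.72 and 8.92. Both arrays labelled induced were above both controls, by 0.49 on average (1.41-fold, SE 0.12, unadjusted p = 0.00501, adjusted p = 0.472), while the controls themselves stood 0.31 apart. The other bright ZEB2 probe set, 228333_at, read 8.42 and 8.46 in control arrays and 8.44 and 8.47 in the arrays labelled induced, with a difference of 0.02 (SE 0.054, 95% interval -0.12 to 0.15). The groups overlapped there, at close replicates. The 3 dim ZEB2 probe sets gave -0.05 to 0.13. Within each array, 203603_s_at minus 228333_at was 0.06 and -0.29 in control arrays and 0.27 and 0.45 in the arrays labelled induced, without overlap between the groups.

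PRRX1 encodes a paired-type homeobox factor of limb and head mesenchyme that can drive a mesenchymal state independently of SNAIL. Its brightest probe set, 226695_at, read 9.32 and 9.23 in control arrays and 9.10 and 9.01 in the arrays labelled induced. Both arrays labelled induced were below both controls, and the difference of -0.22 (SE 0.058, unadjusted p = 0.00797, adjusted p = 0.472) is a level 1.17-fold higher in the controls. The probe set 205991_s_at read 7.96 and 7.79 in control arrays and 7.58 and 7.62 in the arrays labelled induced, again without overlap, with a difference of -0.27 (SE 0.077, adjusted p = 0.472). The dimmer 238852_at read 6.83 and 6.67 against 6.64 and 6.72, where the groups overlapped at -0.07 (SE 0.087), which turned to 0.01 without the first control array. For 226695_at and 205991_s_at, the unadjusted p by limma was not under 0.05 in 2 of 10 alternative fits each. Those fits left out the first control array or 1 of the arrays labelled induced. With any single array left out, the difference of 226695_at ranged from -0.27 to -0.18 and that of 205991_s_at from -0.36 to -0.19. Among TWIST2, ZEB1, ZEB2 and PRRX1, the transcription factors with several probe sets, only PRRX1 had more than 1 at an unadjusted p under 0.05. SNAI1, SNAI2 and TWIST1 have 1 probe set each and could not have more. Without PRRX1, 2 of 14 transcription factor probe sets, or 14.3%, were at that threshold, 1 lower and 1 higher, against 10% of all probe sets.

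**Figure D2:**
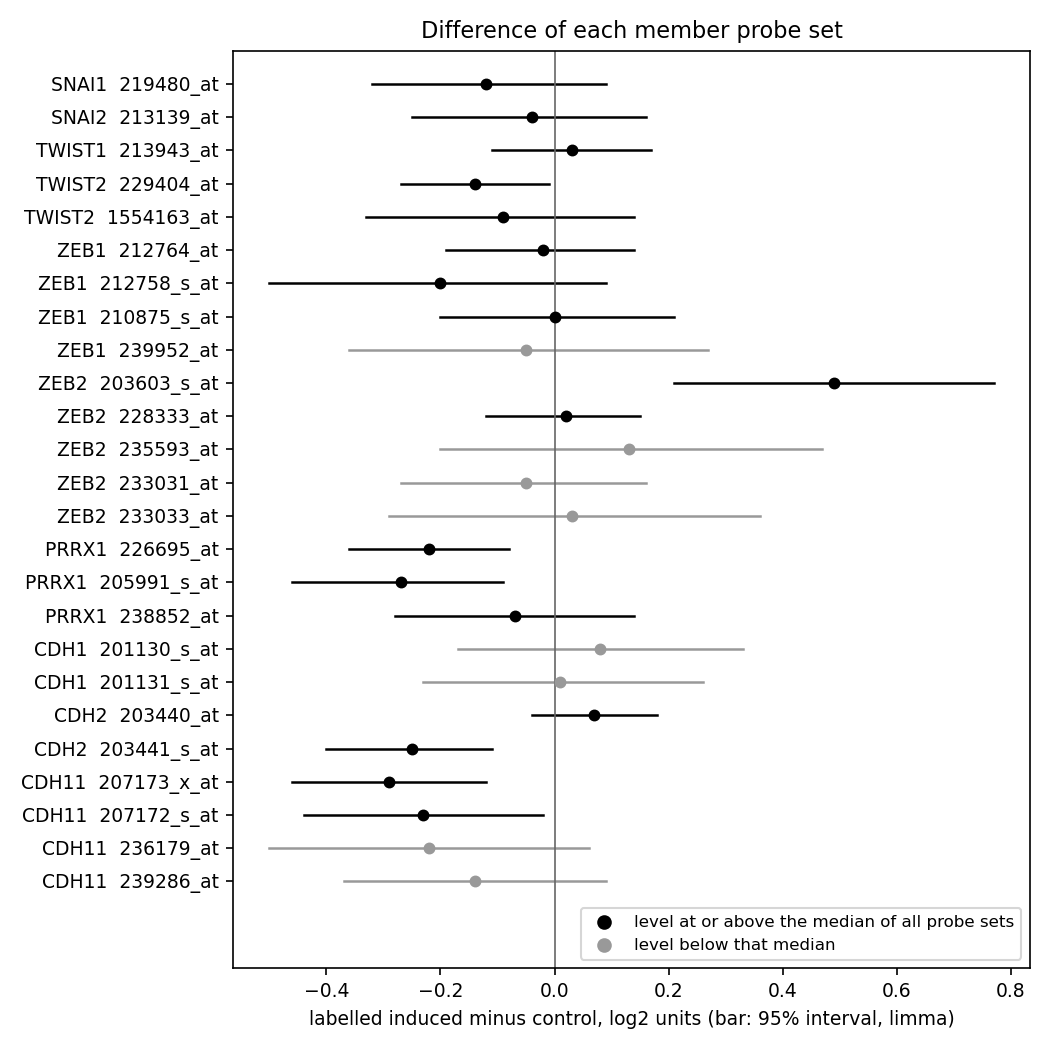
Labelled induced minus control difference of each probe set in log2 units (points) with its 95% interval from limma (bars), black for probe sets at or above the median level and grey for those below it. CDH11 points all lie left of 0, CDH2 and ZEB2 points lie apart within the gene, and 203603_s_at of ZEB2 at 0.49 lies farthest from 0.

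Cadherins are transmembrane proteins that join cells through calcium-dependent contacts and hold catenins at the membrane. CDH1, the epithelial E-cadherin, was dim in every array. Its probe set 201130_s_at read 4.60 and 4.60 in control arrays and 4.62 and 4.75 in the arrays labelled induced, at the 23.2 percentile, and 201131_s_at read 4.17 and 4.10 against 4.12 and 4.18, at the 17.0 percentile. The differences were 0.08 (SE 0.10) and 0.01 (SE 0.10). The arrays labelled induced were just above both controls in the former and overlapped them in the latter. At such levels RMA compresses differences, so these intervals (-0.17 to 0.33 and -0.23 to 0.26) bound the signal and not the transcript.

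CDH2, the N-cadherin of neural and mesenchymal cells, had a bright probe set, 203440_at at the 96.2 percentile. It read 10.89 and 10.91 in control arrays and 10.92 and 11.02 in the arrays labelled induced. The arrays labelled induced were above both controls, the first of them by 0.01 only, and the difference was 0.07 (SE 0.046, 95% interval -0.04 to 0.18, adjusted p = 0.609). The second probe set, 203441_s_at, pointed the other way, with 9.24 and 9.18 in control arrays and 9.02 and 8.89 in the arrays labelled induced. Both arrays labelled induced were below both controls, at -0.25 (SE 0.062, unadjusted p = 0.00563, adjusted p = 0.472). Within arrays, 203441_s_at minus 203440_at was -1.65 and -1.72 in control arrays and -1.90 and -2.13 in the arrays labelled induced, without overlap. The mean over both probe sets differed by -0.09, so no single direction can be given for CDH2.

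CDH11, or OB-cadherin, is a cadherin of mesenchymal cells and of migrating neural crest. The probe set 207173_x_at read 8.15 and 8.17 in control arrays and 7.80 and 7.95 in the arrays labelled induced. The controls were close and both arrays labelled induced lower, with a difference of -0.29 (SE 0.071, unadjusted p = 0.00598, adjusted p = 0.472), a level 1.22-fold higher in the controls. The probe set 207172_s_at read 7.01 and 7.12 in control arrays and 6.76 and 6.91 in the arrays labelled induced, at -0.23 (SE 0.088, unadjusted p = 0.0392, adjusted p = 0.486). The dim probe sets followed in sign: 236179_at gave -0.22 (SE 0.12) and 239286_at gave -0.14 (SE 0.095). In all 4 both arrays labelled induced lay below both controls, as in 23.5% of all probe sets, and all 4 kept a negative sign without any single array, after centring on the array median and after cyclic loess. The unadjusted p of 207172_s_at was not under 0.05 in 5 of 10 alternative fits: 0.0501 with centred arrays, 0.0549 with cyclic loess, 0.0689 and 0.206 without the first and the second control array, and 0.176 without the first array labelled induced. That of 207173_x_at was 0.0544 without the second control array. These probe sets read the same 4 RNA samples and are not separate replicates. The suffix of 207173_x_at marks a set in which some probes also match other transcripts, which may add to its level.

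**Figure D3:**
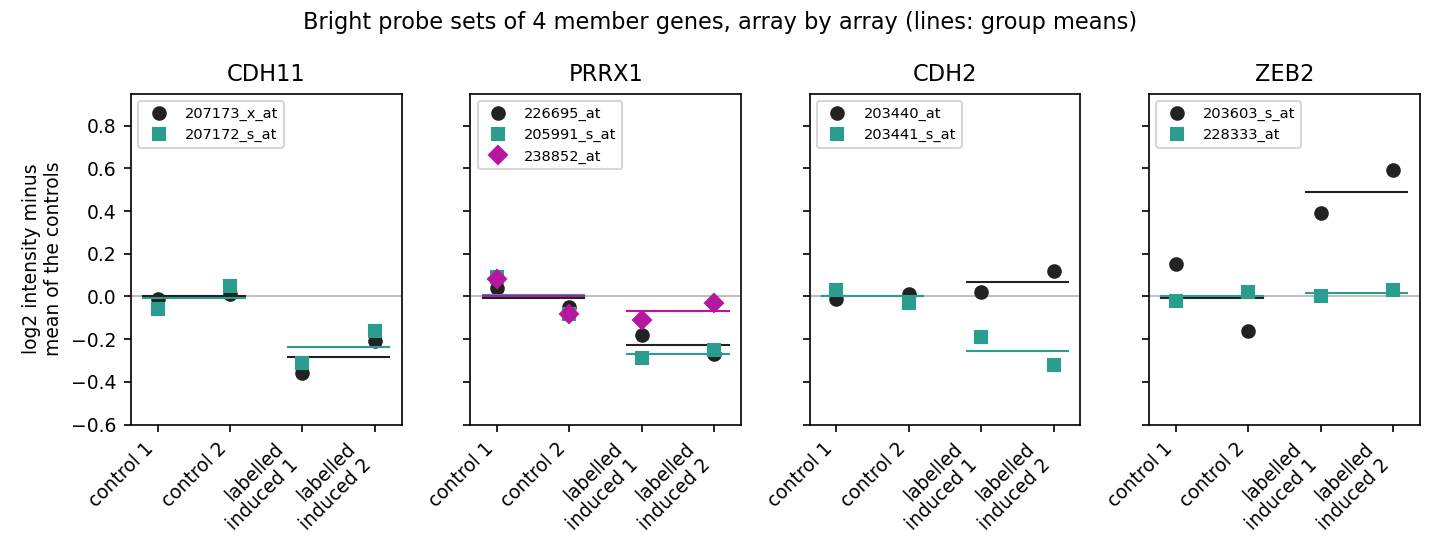
Log2 intensity minus the mean of the controls (vertical axis) in each array for the bright probe sets of CDH11, PRRX1, CDH2 and ZEB2, with horizontal lines at the group means. For CDH11 the arrays labelled induced lie below the controls in both probe sets, whereas CDH2 and ZEB2 each have a probe set that stays near 0 and another that does not.

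The within-array gaps of CDH2 and ZEB2 were tested with limma over the 10523 genes with at least 2 probe sets, each by its 2 brightest, a test added after these values were seen. The change in the gap was -0.33 for CDH2 (SE 0.090, unadjusted p = 0.00636, adjusted p = 0.472) and 0.48 for ZEB2 (SE 0.13, unadjusted p = 0.00597, adjusted p = 0.472), against 9.78% of all genes at an unadjusted p under 0.05 and 0% called. Neither passed. For ZEB1 it was -0.18 (SE 0.14, adjusted p = 0.667). Without the first array labelled induced all 3 passed in limma (adjusted p = 0.00167, 0.00712 and 0.0172), where 5.35% of all genes did and the lone array labelled induced is assumed to vary like the controls. Without any other single array none of the 3 passed by limma, and ZEB2 had an unadjusted p of 0.0649 without the second control array. A measure of RNA quality was read as well. The 3' minus 5' log2 difference of the ACTB control probe sets was -0.036 and 0.021 in control arrays and 0.033 and 0.11 in the arrays labelled induced. For GAPDH it was -0.067 and -0.069 in control arrays and -0.043 and -0.047 in the arrays labelled induced. In both genes both arrays labelled induced lay above both controls, while 41.4% of all probe sets showed no overlap of groups in their levels. For ACTB the nearest arrays of the groups (0.021 and 0.033) were closer than the replicates of either group. Any part of these 3' minus 5' differences in the differences between probe sets of a gene was not tested.

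Since SNAIL, TWIST and ZEB proteins bind E-boxes, the promoters of the genes themselves were searched for the motif CAGGTG on either strand. RefSeq promoter sequences of 300 bases (250 before to 50 after a transcript start, GRCh38.p14) were used for 5 of the 10 genes: ZEB1, ZEB2, TWIST2, PRRX1 and CDH2, with 12 windows in all. The motif occurred in 2 of these windows and in 20.6% of all 35116 promoter windows, so a window without it is the common case. Both matching windows were of ZEB1, which supplied most of the 12 windows, so this does not set ZEB1 apart from the other genes. The motif CTTTGAT, bound by the TCF/LEF factors of canonical WNT signalling, occurred in 0 of the 12 windows and in 2.62% of all. These are letters in a window and not measured binding. The ZEB1 window with 3 matches (chr10:31318966-31319265, plus strand) is shown because it holds most of them, with CAGGTG or its reverse complement in capitals. The PRRX1 (chr1:170663881-170664180, plus strand) and TWIST2 (chr2:238847835-238848134, plus strand) windows are shown as well. Of the transcription factors, only these 2 had lower readings at an unadjusted p under 0.05 by limma. A bright ZEB1 probe set was also lower, by -0.20, but not at that threshold. The PRRX1 and TWIST2 windows hold no match to either motif.
ZEB1: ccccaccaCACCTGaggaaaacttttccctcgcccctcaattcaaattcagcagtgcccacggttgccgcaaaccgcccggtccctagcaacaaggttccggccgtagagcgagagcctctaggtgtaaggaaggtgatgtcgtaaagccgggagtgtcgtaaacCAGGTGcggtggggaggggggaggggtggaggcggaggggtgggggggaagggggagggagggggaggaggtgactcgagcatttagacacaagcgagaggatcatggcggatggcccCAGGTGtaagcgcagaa
PRRX1: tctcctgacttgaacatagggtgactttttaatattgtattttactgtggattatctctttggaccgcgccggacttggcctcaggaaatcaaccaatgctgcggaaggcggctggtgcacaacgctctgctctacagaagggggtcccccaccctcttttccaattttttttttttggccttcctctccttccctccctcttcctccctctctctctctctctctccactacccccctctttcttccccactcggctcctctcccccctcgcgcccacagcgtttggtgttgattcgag
TWIST2: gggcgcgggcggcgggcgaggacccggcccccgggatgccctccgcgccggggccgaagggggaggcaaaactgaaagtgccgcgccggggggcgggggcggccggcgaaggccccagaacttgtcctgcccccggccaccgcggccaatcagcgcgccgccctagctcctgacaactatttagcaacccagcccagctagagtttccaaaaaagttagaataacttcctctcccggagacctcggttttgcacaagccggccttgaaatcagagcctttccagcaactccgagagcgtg
The TWIST2 window is rich in G and C (66.7%), with 29 CG pairs. The PRRX1 window, at 53.0% G and C, has 11 CG pairs, and the printed ZEB1 window has 17.

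Genes that act with these factors were read from lists, with the brightest probe set standing for each gene. Over all 19775 genes, 6.48% had an unadjusted p under 0.05 and a higher level in the arrays labelled induced and 4.73% a lower one, and limma called 0 at an adjusted p under 0.05. Of the 216 measured genes on the lists, 23 were higher and 15 lower at that unadjusted threshold, 0 passed the adjusted threshold, and the total of 38 was 19 without the second control array. Of 17 other factors of the transition, 2 were higher and 3 lower (median difference -0.04), with KLF4, a factor that can hold the epithelial state, at 0.43 (SE 0.083) and ETS1 at 0.31 (SE 0.047). Another probe set of KLF4 gave -0.30, and those of ETS1 gave 0.00 to 0.14. Of 24 corepressors and regulators of SNAIL, TWIST and ZEB, 3 were higher and 2 lower (median 0.02). AJUBA, a LIM protein and SNAIL corepressor, differed by 0.50 (SE 0.053, adjusted p = 0.192) and was higher in each of its probe sets, and the deacetylase HDAC2 differed by 0.20 (SE 0.045), against -0.08 in its other probe set.

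Partners at the membrane were read in the same way. Of 18 catenins and adherens junction partners, 3 were higher and 1 lower (median 0.02), with the alpha-catenin-like CTNNAL1 at 0.25 (SE 0.042) and CBLL1, an E3 ligase that targets E-cadherin, at 0.39 (SE 0.067) and 0.37 in its probe sets. Of 18 other cadherins, 1 was higher and 0 lower (median -0.04). CDH15 differed by 0.30 (SE 0.076), against -0.20 in a dim probe set, and CDH12, not at the threshold, by -0.10 (SE 0.057). Of 31 epithelial genes, 1 was higher and 0 lower (median -0.05), namely the tight junction scaffold TJP1 at 0.22 (SE 0.052) and 0.13 in its other probe set, while the polarity gene CRB3, not at the threshold, stood at -0.18 (SE 0.084).

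Mesenchymal effector genes had 4 higher and 1 lower of 29 (median 0.05), with the proteoglycan lumican (LUM) at 0.34 (SE 0.055) and the integrin ITGB3 at -0.34 (SE 0.081). Other probe sets gave -0.05 for LUM and -0.27 to 0.08 for ITGB3. Of 20 regulators and markers of mesenchymal glioblastoma, 4 were higher and 0 lower (median 0.01), with the transcription factors FOSL2 at 0.20 (SE 0.045) and CEBPB at 0.17 (SE 0.043). Other probe sets of FOSL2 gave 0.00 to 0.39. Of 13 proneural markers, 0 were higher and 4 lower (median -0.07), with OLIG1 at -0.35 (SE 0.083) and ERBB3 at -0.15 (SE 0.034), where other probe sets of ERBB3 gave -0.21 to 0.05. Of 17 genes of TGF-beta signalling, which induces SNAIL and ZEB factors in many cells, 3 were higher and 1 lower (median 0.02). The activin subunit INHBA differed by 0.18 (SE 0.040), with 0.11 to 0.14 in its other probe sets. The co-receptor TGFBR3 differed by -0.28 (SE 0.061), with the same sign in its other probe set at -0.35. The adjusted p of every gene named in these lists was 0.192 or higher.

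The counts at the unadjusted threshold were small and moved with single arrays and with the processing, up as well as down. With centred arrays the 4 catenins and partners became 5, and with probe sets averaged the 4 proneural markers became 5. The 4 genes of the mesenchymal glioblastoma list were 1 without the second control array, 2 without either array labelled induced, 6 without the first control array and 2 with probe sets averaged. The 5 mesenchymal effector genes were 3 without the second control array and 1 with probe sets averaged. The 5 other factors of the transition were 2 or 3 without any single array and 1 with probe sets averaged. The 5 corepressors and regulators were 2 without the second control or the second array labelled induced, and 3 without the first array labelled induced, with centred arrays or with probe sets averaged. The 4 catenins and partners were 2 without the second control or the second array labelled induced, and the 4 proneural markers were 2 without the second control array. The single epithelial gene was 0 without the second control array and 2 without any other one. Only the counts of the other cadherins (1 throughout) and of TGF-beta signalling (3 or 4) stayed within 1.5 times in these fits.

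**Figure D4:**
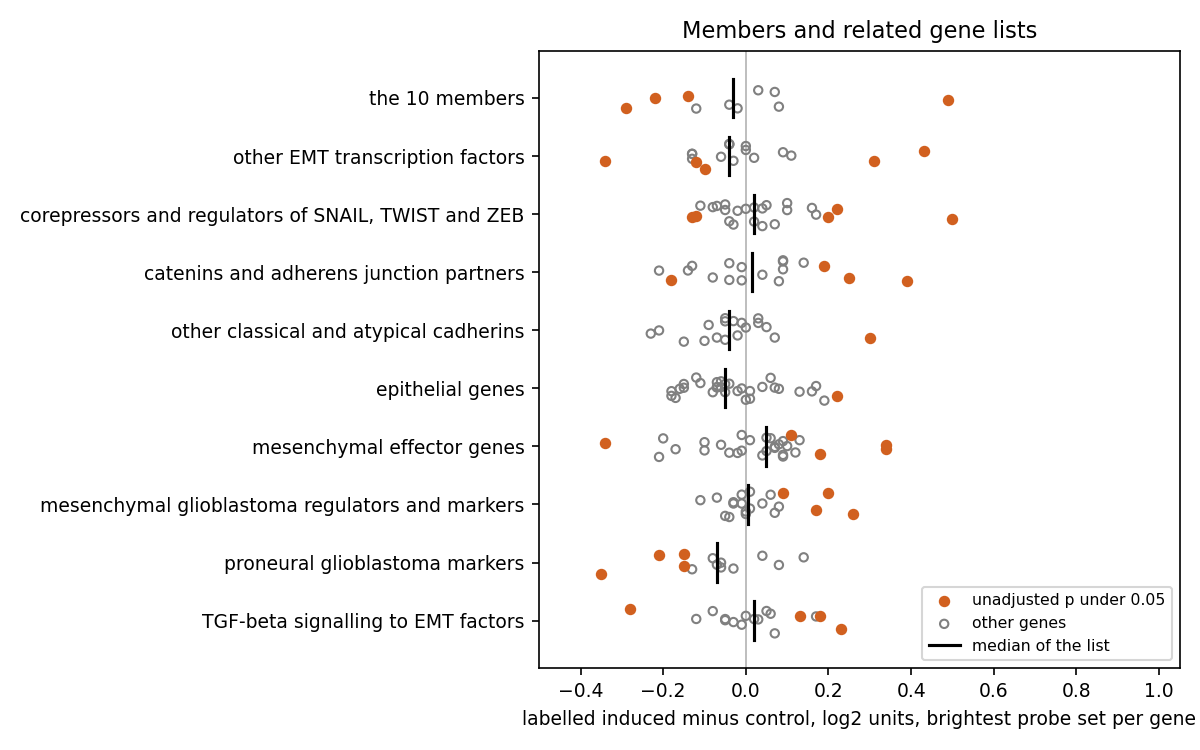
Labelled induced minus control difference in log2 units of the brightest probe set of each gene (points) for the 10 genes and for 9 related lists, with filled points at an unadjusted p under 0.05 and black lines at the medians. The medians of the 9 lists lie between -0.07 and 0.05, and filled points lie on either side of 0 in 5 of the 9 lists.

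Of the marker lists for cell types, 0 genes were higher and 3 lower of 10 for glioma cells, among them FABP7 at -0.19 (SE 0.034) and S100B at -0.12 (SE 0.038). Other probe sets gave -0.29 to -0.06 for FABP7 and -0.17 for S100B, and the count was 1 without the second control array, without the first array labelled induced or with centred arrays. No leukocyte gene of 8 was at the unadjusted threshold by limma, with AIF1 at -0.13 (-0.14 to 0.13 in its other probe sets) and CD3E at 0.09, and 0 passed the adjusted one. Endothelial genes had 1 higher (TEK at 0.32, a dim probe set) and 1 lower (ESAM at -0.19) of 10, while CLDN5 at -0.19 was not at the threshold. Their count was 0 without the second control or the second array labelled induced and 1 without either of the others. Neuronal genes had 1 higher and 0 lower of 10, namely SYT1 at 0.35, with 0.09 in its other probe set, and this count was 2 without the first control array. SNAP25, not at the threshold, stood at 0.11, with -0.06 and 0.18 in its other probe sets. The median differences of these 4 lists were -0.06, -0.04, -0.01 and 0.03.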

How the data were processed

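The values are log2 intensities per probe set that the authors deposited. The submitters' processing notes name RMA and affy, and their versions are not given in the sources used here. RMA corrects background, gives all arrays the same distribution and summarises probes on a log2 scale, so a shift shared by most genes would not be seen. Array number limits the precision: 2 against 2. Groups came from the sample titles. Of 54675 rows, 62 control probe sets were left out. Differences were fitted over the other 54613 with limma 3.58.1 in R 4.3.3 (lmFit, eBayes with an intensity trend, 2-sided, Benjamini-Hochberg adjustment, threshold 0.05). The fit was also run on simulated data with planted changes. Their noise was independent and normal, so that run cannot show the power of the test on these 4 arrays. Probe sets with several gene symbols were not named. The probe set with the highest mean stood for a gene.

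The 10 genes and the 13 lists were chosen with earlier results of these data known. All 10 genes were named, and from each list the 2 genes of smallest p at or above the median level; other genes printed (VIM, NES, GFAP, PDGFRA, KRT18, EPCAM, WIF1, TEK) were chosen after their values were seen. The alternatives comprised a replicate block, robust or trend-free eBayes, only bright probe sets, centred arrays, cyclic loess, averaged probe sets, other thresholds and leaving out each array.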

Additional observations from a re-analysis of the deposited data

How the results depend on the processing

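The count of 0 among the 25 probe sets held under every alternative tried, including an adjusted p threshold of 0.1. Over all probe sets the limma count of 0 became 2 with robust eBayes, 5 with centred arrays, 11 with cyclic loess and 2 at a threshold of 0.1. The 7 probe sets at an unadjusted p under 0.05 ranged from 2 to 7 when an array was left out, and the 12 without overlap from 17 to 22, where a group of 1 array overlaps less often (22 came with 74.0% of all probe sets). Of the brightest probe sets of single genes, SNAI2 turned to 0.047 and TWIST1 to -0.027 without the second array labelled induced, within leave-one-out ranges of -0.136 to 0.047 and -0.027 to 0.084. ZEB1 turned to 0.002 with centred arrays and ranged from -0.107 to 0.061 when an array was left out, and 0.01 without the first array labelled induced. CDH2 turned to -0.091 when its probe sets were averaged. Of the dimmer probe sets, 238852_at of PRRX1 turned to 0.01 and 228333_at of ZEB2 to -0.01 without the first control array, and 239952_at of ZEB1, 233033_at and 235593_at of ZEB2 and 201131_s_at of CDH1 turned sign without 1 array or another. The gap between the ZEB1 probe sets turned to 0.043 without the second array labelled induced and ranged from -0.404 to 0.043 when an array was left out; those of CDH2 (-0.445 to -0.208) and ZEB2 (0.30 to 0.654) kept their sign. Genes of the lists at an unadjusted p under 0.05 ranged from 19 to 36 without 1 array. The cause of these shifts was not tested. With the replicate block, 6 of the 25 probe sets had an unadjusted p under 0.05 and 0 of all probe sets passed. Deviations of the first replicates correlated at 0.0564, so the numbers did not pair the cultures, and the block changed no call.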
